A study of Rattus norvegicus with 12 samples.

Results

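The 10 genes described here encode proteins that neutrophils store in their granules or hold in bulk in their cytosol. They were chosen by symbol, for the known role of their products and with earlier results of these data known. All 10 have a row of their own among the 19230 rows of the table. Mpo, Elane, Prtn3 and Ctsg belong to the azurophil (primary) granule, Camp, Ngp, Lcn2 and Ltf to the specific (secondary) granule, and S100a8 and S100a9 encode the subunits of calprotectin. The rats were Sprague-Dawley, and each of 4 groups had 3 RNA-seq libraries. The first held whole lung of wild-type (WT) animals kept in normoxia, at day 0. Another held WT lung after Sugen with hypoxia (SuHx), at day 4, and another, given the same treatment to the same day, carried the label Ahr-KO. The last held WT endothelial cells (ECs) from normoxia, whose day is labelled 4 while their columns give 0. SuHx, which joins a VEGF receptor inhibitor with low oxygen, is a model of pulmonary arterial hypertension, and Ahr encodes the aryl hydrocarbon receptor. No group had the drug or hypoxia alone, and no Ahr-KO lung in normoxia was measured, so drug, hypoxia and, for the lungs labelled Ahr-KO, genotype cannot be told apart against normoxia. The labels do not say how the ECs were isolated, whether they were cultured, or which part of Ahr was deleted. Libraries are named by group and the suffix 0, 1 or 2 of their column. Nothing says that they are separate animals, and the p-values therefore cover only the spread between these libraries, which may be technical.

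Granule proteins are made in the order in which a neutrophil matures in the bone marrow. Azurophil granule genes are transcribed in promyelocytes and are then switched off, specific granule genes follow in myelocytes and metamyelocytes under the factor C/EBP-epsilon, and S100a8 and S100a9 mRNA stays abundant in mature, circulating neutrophils. A mature neutrophil therefore carries azurophil proteins with little of their mRNA. Lcn2 is also made by epithelial and other cells during inflammation, partly under NF-kappaB and the interleukin 6 pathway, and S100a8 and S100a9 are shared with monocytes.

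Values are signals, that is, read counts that the authors divided by 1 factor for each library, and 1 read was worth 0.745 to 1.25. The libraries held 20.04 M to 28.6 M reads, and the 10 genes together took 0.00799% to 0.0610% of a library's signal. Ahr mRNA ranged from 1800.03 to 2523 with the Ahr-KO label and from 1739.6 to 3073 in the WT SuHx lungs, so it does not mark the labelled genotype, whereas its target Cyp1a1 ranged between 3.87 and 5.32 against 65459 to 75070.5. Normoxia 2 and Ahr-KO 2 stood apart by cardiac and airway RNA. Myh6 was at 2880 and 4900.1 there and the airway gene Bpifa1 at 1231 and 28980, against at most 1228 and 359 in every other library. Ahr-KO 0 and 1 also held Myh6, at 1228 and 673, whereas it was at 0 in each WT SuHx lung. All 8 endothelial markers were higher in the ECs than in lung, and all 8 alveolar markers were lower, though these still summed to 103971 to 234509 there. Of the 8 neutrophil markers (Csf3r, Cxcr2, Fpr1, Il1r2, Mmp8, Retnlg, Cd177 and Trem1), which share no gene with the 10 and of which Cxcr2 and Trem1 have merged rows, none was at 0 in any library, and their summed signal was 1076 to 2081 in normoxia lung, 1517 to 1885 in WT SuHx, 1708 to 2588 with the Ahr-KO label, and 3553 to 4658 in the ECs. Genes were tested with limma on log2(signal + 1), and "called" stands for an adjusted p under 0.05 (Benjamini-Hochberg) among all genes of the fit.

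**Figure D1:**
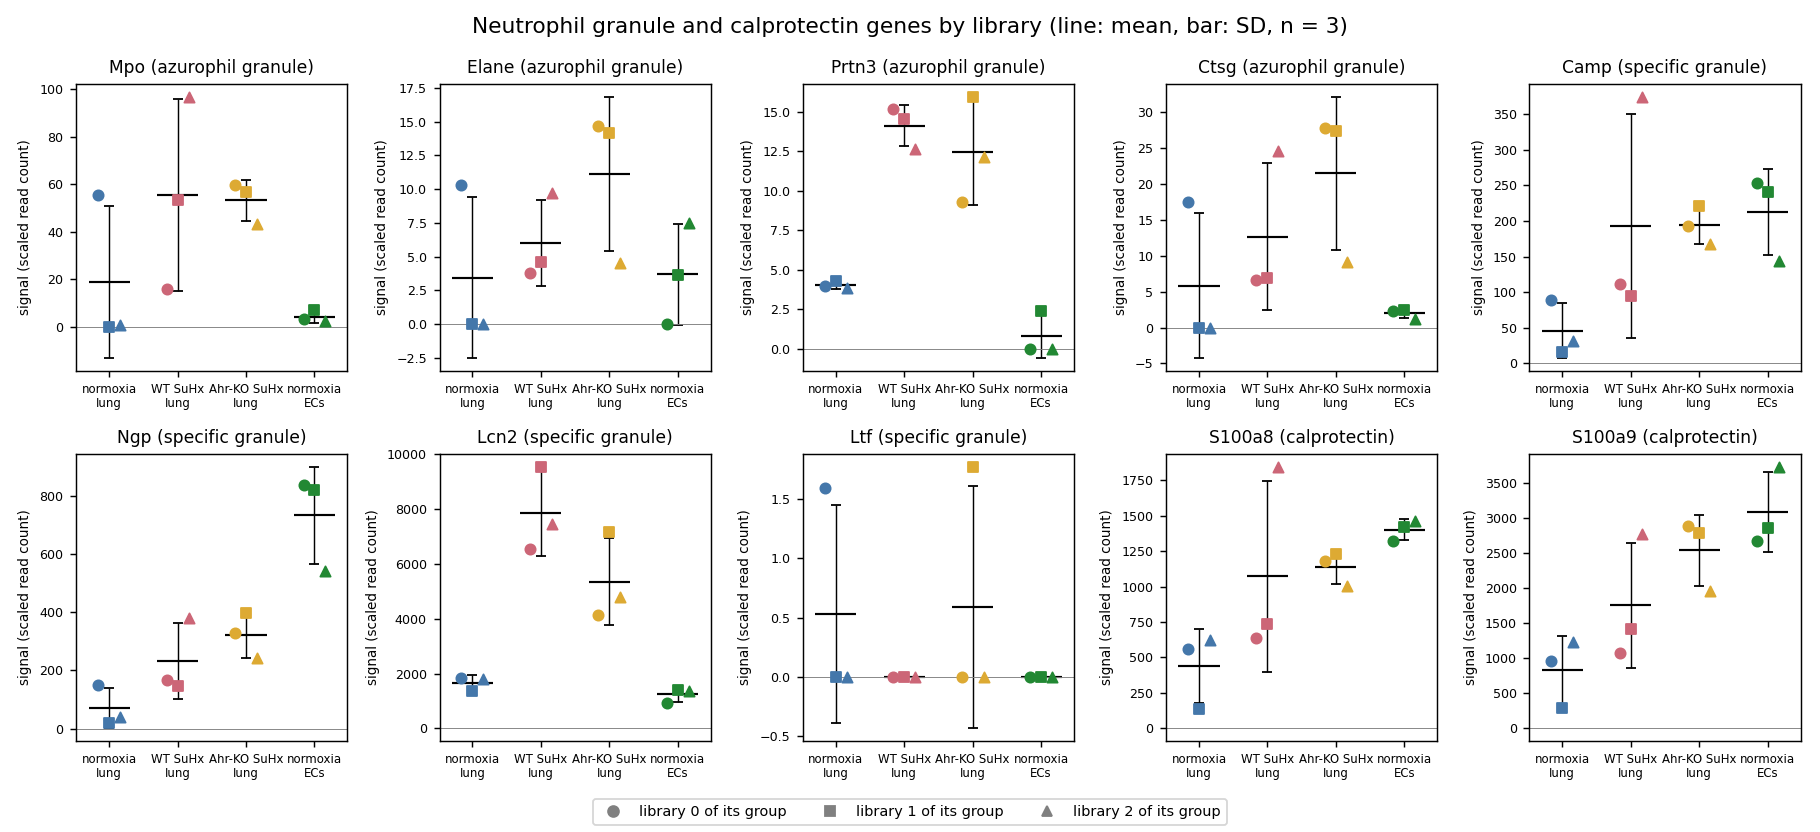
Signal (scaled read count, linear axis, a separate scale for each gene) of the 10 genes in the 12 libraries, with points for libraries 0 (circle), 1 (square) and 2 (triangle) of each group, a line at the mean and a bar for the SD. Lcn2 and Prtn3 separate both SuHx groups from normoxia lung, and Mpo, Elane and Ctsg are high in 1 of the 3 normoxia lungs.

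Shown here are the promoters of the 5 genes called in at least 1 comparison and held in the RefSeq promoter table. Against normoxia lung, Lcn2 was called in both SuHx groups, and Prtn3 in both and, lower, in the ECs. Camp and Ngp were called in the lungs labelled Ahr-KO and the ECs, and S100a9 in the ECs. In WT SuHx Camp and Ngp just missed the threshold (limma adjusted p = 0.0555 and 0.0620). None of the tested genes was called between the SuHx groups. Of the 10 genes, 8 are in the table, and S100a8 and Elane are not. Each line gives the 250 bases before the RefSeq start on assembly GRCr8, which is another build than the rn6 of the deposited values. Capitals mark 3 motifs, searched on both strands: TTNCNNAA, a C/EBP-type motif whose letters differ on the other strand, GAGGAA, the core that PU.1 binds, and a kappaB-type motif, GGGAA and CC with 3 letters between them.
Lcn2, chr3:36081781-36082030, minus strand: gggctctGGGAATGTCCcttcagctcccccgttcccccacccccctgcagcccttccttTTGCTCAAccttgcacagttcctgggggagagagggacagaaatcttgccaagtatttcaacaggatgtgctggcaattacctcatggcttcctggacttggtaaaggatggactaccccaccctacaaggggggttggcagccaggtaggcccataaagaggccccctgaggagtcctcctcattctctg
Camp, chr8:118721999-118722248, minus strand: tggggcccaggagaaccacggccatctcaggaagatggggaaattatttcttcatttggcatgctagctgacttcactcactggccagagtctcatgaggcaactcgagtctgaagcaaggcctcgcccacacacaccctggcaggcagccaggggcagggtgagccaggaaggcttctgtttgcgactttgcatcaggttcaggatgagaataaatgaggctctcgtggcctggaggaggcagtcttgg
Ngp, chr8:119272355-119272604, plus strand: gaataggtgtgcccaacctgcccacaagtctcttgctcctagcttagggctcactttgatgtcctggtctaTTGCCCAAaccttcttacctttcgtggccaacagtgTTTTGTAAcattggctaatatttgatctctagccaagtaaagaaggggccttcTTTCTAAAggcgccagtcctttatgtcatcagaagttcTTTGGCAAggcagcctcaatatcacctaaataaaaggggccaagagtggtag
S100a9, chr2:178490623-178490872, minus strand: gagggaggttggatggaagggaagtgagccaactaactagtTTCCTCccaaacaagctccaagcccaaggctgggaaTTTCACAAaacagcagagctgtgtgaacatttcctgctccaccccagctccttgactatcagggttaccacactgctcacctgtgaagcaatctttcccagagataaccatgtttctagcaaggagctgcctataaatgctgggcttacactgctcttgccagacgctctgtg
Prtn3, chr7:10476197-10476446, minus strand: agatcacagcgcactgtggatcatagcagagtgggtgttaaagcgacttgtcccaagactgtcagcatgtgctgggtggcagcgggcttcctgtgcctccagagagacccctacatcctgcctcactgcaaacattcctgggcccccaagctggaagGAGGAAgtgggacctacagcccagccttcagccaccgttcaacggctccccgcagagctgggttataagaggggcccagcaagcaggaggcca

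The C/EBP-type letters occurred in 4 of the 8 promoters (Lcn2, Ngp, S100a9 and Mpo) and in 37.2% of all 33469 promoters searched, and 4 of those matches stood in Ngp. PU.1-type letters occurred in 4 of the 8 (S100a9, Prtn3, Mpo and Ctsg) and in 23.3% of all. The kappaB-type letters occurred in Lcn2 alone of the 8, 243 to 234 bases before the start, and in 5.07% of all. No printed match overlaps another. These counts describe letters in a window and not bound sites. In the gene order of GRCr8, S100a8 and S100a9 are direct neighbours on chromosome 2, Elane and Prtn3 are direct neighbours on chromosome 7, and Camp, Ngp and Ltf lie on chromosome 8, with 9 protein-coding genes between Camp and Ngp and 21 between Ngp and Ltf.

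The first comparison asks how these genes differed between WT lung at day 4 of SuHx and WT lung in normoxia. Lcn2, the siderophore-binding lipocalin, and Prtn3, proteinase 3, rose, and the other 7 tested genes had positive fold changes that did not pass. Of the 9 tested genes, 2 were called higher and 0 lower, while 7.08% of all 15234 tested genes were called higher and 6.39% lower (13.5% in either direction). The median log2 fold change was 2.01 over the 9 genes and -0.04 over all genes tested. Groups did not overlap for 4 of the 9 (Lcn2, Prtn3, Camp and S100a8), all with SuHx above normoxia, against 17% of all genes in that direction and 19.7% in the other. Ltf, lactoferrin, had too little signal to be tested: it was listed at 0 in 7 of the 9 lung libraries and in all ECs, with 2 reads each in normoxia 0 and Ahr-KO 1. Here as in all comparisons of tissue, more cells of a type and more RNA in each cell cannot be told apart.

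Lcn2 stood at 1853, 1357 and 1801 in the normoxia lungs and at 6534, 9548 and 7463 in the WT SuHx lungs. Every WT SuHx library lay above every normoxia library. The rise was 4.68-fold (log2 fold change 2.23 ± 0.22 SE, limma adjusted p = 0.000485) and kept its call in all 16 alternative settings. Of the 8 neutrophil markers 1 was called in this comparison, Il1r2, the decoy receptor of interleukin 1, at 28.6, 39.2 and 42.9 in normoxia and 199.6, 187 and 248 in WT SuHx (5.64-fold higher, limma adjusted p = 0.000349). The 8 airway markers had no single direction: limma called 0 of them (2 at an unadjusted p under 0.05). Scgb1a1 was at 101219 to 117539 in WT SuHx and 148299 to 165179 in normoxia, Scgb3a2 at 5915 to 7595 against 2373 to 4607, and Bpifa1 had 0 signal in each library of WT SuHx lung. The part of epithelium in the Lcn2 values was not tested.

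Prtn3 had few reads but even values. It had 5 reads in each normoxia lung, a signal of 3.98, 4.26 and 3.83, and 15.1, 14.5 and 12.7 in WT SuHx, from 16, 19 and 17 reads. The libraries of a group were close to each other and the groups did not overlap. Prtn3 rose 3.00-fold (log2 fold change 1.59 ± 0.32, limma adjusted p = 0.0136), and without WT SuHx 0 its call was lost (adjusted p = 0.0574).

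Mpo (myeloperoxidase), Elane (neutrophil elastase) and Ctsg (cathepsin G) divided the normoxia lungs. Mpo was at 55.7 in normoxia 0, at 0 in normoxia 1 and at 0.767, a single read, in normoxia 2, against 16.1, 53.5 and 96.8 in WT SuHx. Ctsg was at 17.5, 0 and 0 in normoxia and at 6.62, 6.88 and 24.6 in WT SuHx. Elane was at 10.3, 0 and 0 in normoxia and at 3.78, 4.59 and 9.68 in WT SuHx. For all 3 genes normoxia 0 lay within or above the range of the WT SuHx libraries, and normoxia 1 and 2 lay below all of them. None was called (Mpo log2 fold change 3.28 ± 1.30, limma adjusted p = 0.120; Ctsg 2.13 ± 1.08, 0.206; Elane 1.55 ± 0.92, 0.269). Values of 0 are listed as deposited and do not show absence.

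Camp, the cathelicidin precursor, and Ngp, a related cystatin-fold granule protein, had the same order of libraries in normoxia. Camp was at 89.1, 16.2 and 31.4 in the normoxia lungs and at 111, 94.1 and 375 in WT SuHx. Ngp was at 150.4, 21.3 and 41.4 in normoxia and at 167, 145 and 381 in WT SuHx. WT SuHx 2 was the highest library for both genes in that group and normoxia 1 the lowest in theirs. The fold changes missed the threshold (Camp log2 fold change 2.10 ± 0.63, limma adjusted p = 0.0555; Ngp 2.01 ± 0.63, 0.0620).

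The calprotectin genes had the smallest fold changes of the 9. S100a8 was at 560.1, 136 and 622 in normoxia and at 635, 736 and 1845 in WT SuHx. S100a9 was at 955, 294 and 1236 in normoxia and at 1079, 1425 and 2773 in WT SuHx. The S100a9 groups overlapped, and the S100a8 groups were separated only by the step from 622 to 635. Neither was called (S100a8 log2 fold change 1.39 ± 0.56, limma adjusted p = 0.126; S100a9 1.21 ± 0.51, 0.138). WT SuHx 2 was again the highest lung of its group, and of the 12 libraries it also had the highest Pf4 (a platelet gene) and Hbb. Monocytes share these genes. Of the 8 tested monocyte and macrophage markers 3 were called higher (C1qa, C1qb and C1qc), beside 7.08% of all genes. The part of monocytes and macrophages in the values was not tested.

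**Figure D2:**
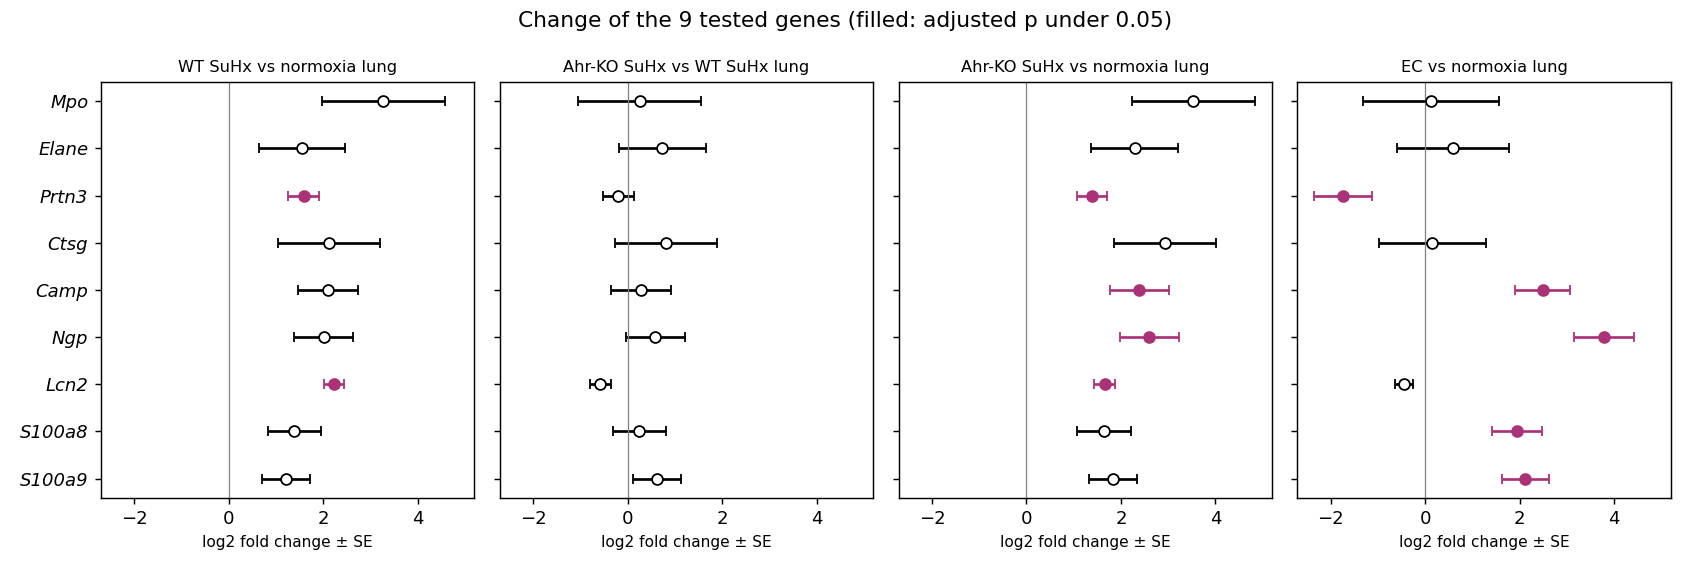
Log2 fold change (x axis) ± SE of the 9 tested genes in the 4 comparisons, from limma on log2(signal + 1) with 3 libraries a group, filled where the adjusted p is under 0.05. Prtn3 and Lcn2 pass in WT SuHx against normoxia, no gene passes between the SuHx groups, and Prtn3 lies left of 0 in the ECs while Camp, Ngp, S100a8 and S100a9 lie right of it.

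The number of calls turned on 1 library. Without normoxia 0, 7 of the 9 genes were called higher in WT SuHx (all but S100a8 and S100a9), while the share of all genes called higher fell to 4.05%. The log2 fold change of Mpo was then 5.08 (limma adjusted p = 0.00379), that of Ctsg 3.53 (0.0216), of Elane 2.72 (0.0378), of Ngp 2.78 (0.0101) and of Camp 2.75 (0.0249). Without WT SuHx 0, a single gene, Lcn2, was called. Among the genes of blood cell precursors, Rhag and Ms4a3 were named after their values had been seen. Rhag is also among the rows picked below for their likeness to the azurophil set. Rhag, of red cell precursors, was at 18.3 in normoxia 0 against 0.852 and 2.30 in normoxia 1 and 2. Ms4a3, a marker of granulocyte and monocyte progenitors, was at 5.57 (7 reads) against 0 and 0.767 (1 read). Cebpe, a factor of granulocyte formation, was at 10.3 in normoxia 0, 7.67 in normoxia 1 and 19.9 in normoxia 2. In the WT SuHx lungs Rhag was at 34.1 to 57.3. All 7 erythroid markers with a row were called higher with SuHx in WT lung, beside 7.08% of all genes. The part of blood cells in the results for the granule genes was not tested. With both libraries rich in cardiac and airway RNA left out, a setting added after the data had been seen, the calls were again Lcn2 and Prtn3, beside 8.69% of all genes called higher.

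**Figure D3:**
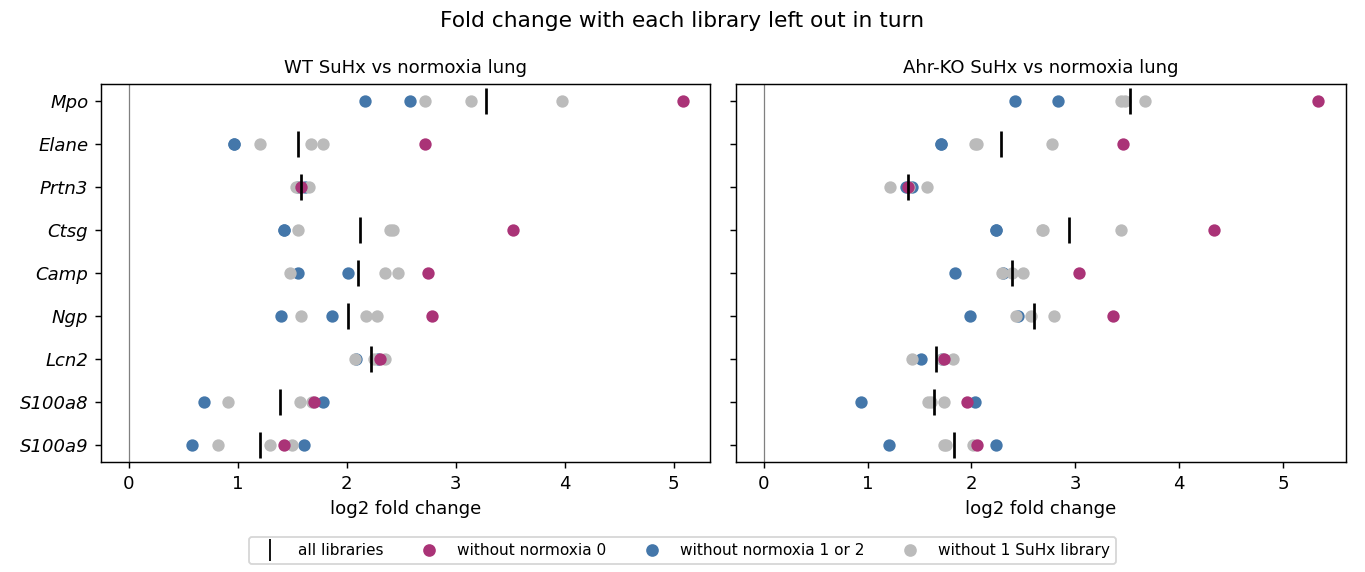
Log2 fold change (x axis) of the 9 tested genes against normoxia lung with all libraries (black line) and with each library left out in turn (points), for WT SuHx (left) and the lungs labelled Ahr-KO (right). Leaving out normoxia 0 moves Mpo from 3.28 to 5.08 in WT SuHx, while Prtn3 stays between 1.54 and 1.66 there whichever library is left out.

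The next comparison asks whether these genes differed with the labelled genotype when the treatment was the same. None of the 9 tested genes was called (limma adjusted p from 0.301 to 0.945), and 1 had an unadjusted p under 0.05. Of all 15234 tested genes 0.499% were called (0.197% higher and 0.302% lower), so few genes passed between these groups. With both libraries rich in cardiac and airway RNA left out, again 0 of the 9 were called, beside 0.276% of all genes called higher. That setting keeps Ahr-KO 0 and 1, whose Myh6 was also above that of the WT SuHx lungs. The median log2 fold change of the 9 genes was 0.29, against 0.02 over all genes tested, and the groups overlapped for all 9, where 11.7% of all genes had the Ahr-KO label fully above and 10.2% fully below.

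Lcn2 was the gene with the unadjusted p under 0.05. It stood at 4121, 7165 and 4785 in the lungs labelled Ahr-KO against 6534, 9548 and 7463 in WT SuHx, and only Ahr-KO 1 reached into the WT range. Its log2 fold change was -0.57 ± 0.22 (95% interval -1.07 to -0.08, limma adjusted p = 0.301). Ahr-KO 2, with Bpifa1 at 28980, lay between the other Ahr-KO libraries. The part of airway RNA in these Lcn2 values was not tested. Il1r2 did pass: it was at 68.1, 88.6 and 71.4 in the lungs labelled Ahr-KO, that is, below every WT SuHx library (2.76-fold lower, limma adjusted p = 0.0291). It was the only called gene of the 18 tested rows of neutrophil surface receptors in this comparison. The median log2 fold change was 0.23 over those rows and 0.60 over the 8 neutrophil markers, so Il1r2 went against the median of both lists.

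For the remaining genes the intervals were wide. With the Ahr-KO label S100a9 was at 2885, 2789 and 1961 (its log2 fold change against WT SuHx was 0.63, 95% interval -0.51 to 1.77). S100a8 was at 1179, 1234 and 1002 (0.25, -1.01 to 1.51), Camp at 193, 221 and 167 (0.29, -1.12 to 1.70) and Ngp at 328, 398 and 242 (0.59, -0.82 to 1.99). Of the azurophil genes, Mpo was at 59.6, 56.7 and 43.3 (0.26, -2.66 to 3.17), Elane at 14.7, 14.2 and 4.56 (0.74, -1.32 to 2.79), Ctsg at 27.9, 27.5 and 9.12 (0.81, -1.61 to 3.23) and Prtn3 at 9.29, 15.9 and 12.2 (-0.19, -0.91 to 0.53). Such intervals leave room for a rise or a fall in every one of these genes. The WT SuHx libraries spread more than those labelled Ahr-KO for Camp (SD 157 against 27.1), Mpo (40.4 against 8.68) and S100a8 (672 against 121), in each case with WT SuHx 2 as the highest, and less for Prtn3 (1.29 against 3.34) and Elane (3.20 against 5.71), while Ctsg (10.3 against 10.7) and Lcn2 (1544 against 1600.3) spread about alike. The sign turned for Mpo and S100a8 without WT SuHx 0 and for Camp without WT SuHx 1, to values that were not called.

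The lungs labelled Ahr-KO were also set against normoxia lung, a comparison that shares its normoxia libraries with the first. Of the 9 tested genes, 4 were called higher (Lcn2, Prtn3, Camp and Ngp) and 0 lower, against 5.95% of all tested genes called higher and 3.8% lower (9.75% in either direction). The median log2 fold change was 2.29, against -0.03 over all genes tested. Groups did not overlap for 6 of the 9, all above normoxia, against 15.1% of all genes above it and 17.9% below. Lcn2 rose 3.15-fold (log2 fold change 1.65 ± 0.22, limma adjusted p = 0.00170), Ngp 6.06-fold (2.60 ± 0.63, 0.0310), Camp 5.25-fold (2.39 ± 0.63, 0.0440) and Prtn3 2.63-fold (1.39 ± 0.32, 0.0261).

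The call of Lcn2 held in all 16 alternatives, whereas those of Camp and Ngp were lost in 9 each and that of Prtn3 in 8. Leaving out any 1 of the 6 libraries compared except normoxia 0 ended the calls of both Camp and Ngp (adjusted p up to 0.129 and 0.106). Without normoxia 0 their log2 fold changes were 3.04 and 3.37, and Mpo (5.34), Ctsg (4.34) and Elane (3.46) were called as well, so that 6 genes passed, beside 3.79% of all genes called higher. Without normoxia 1 the log2 fold change of Ngp was 1.98. Prtn3 lost its call without normoxia 0, normoxia 1, Ahr-KO 1 or Ahr-KO 2 (adjusted p up to 0.109), and with both libraries rich in cardiac and airway RNA left out 2 genes were called, Lcn2 and S100a9, beside 5.43% of all genes called higher. S100a9 was just short of the threshold with all libraries (log2 fold change 1.83 ± 0.51, limma adjusted p = 0.0516), and S100a8 was farther off (1.64 ± 0.56, 0.1005).

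The ECs were set against normoxia lung to see how much mRNA of these genes the cell preparation held. Camp, Ngp, S100a8 and S100a9 were higher in the ECs, Prtn3 was lower, and Lcn2, Mpo, Elane and Ctsg were not called. These are 4 of 9 genes called higher and 1 lower, where 26.1% of all 15186 tested genes were called higher and 30.1% lower (56.2% in either direction). The groups did not overlap for these same 5 genes, against 30.4% of all genes with the ECs above and 35.1% with the ECs below. The median log2 fold change of the 9 genes was 0.60, against -0.05 over all genes tested. Camp and Ngp are used as markers of maturing neutrophils. Which cells of the EC preparation carried their mRNA was not tested.

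Ngp was at 837, 819 and 540.4 in the ECs against 150.4, 21.3 and 41.4 in lung. All EC libraries lay above all lung libraries of every treatment. The difference was 13.7-fold (log2 fold change 3.78 ± 0.64, limma adjusted p = 0.00207). Camp was at 254, 241 and 144 in the ECs, 5.62-fold above normoxia lung (2.49 ± 0.58, 0.00894), and within the range of the SuHx lungs. Both calls held in all 14 alternatives, with log2 fold changes of 3.17 to 4.55 for Ngp and 1.94 to 3.13 for Camp, the highest without normoxia 0 and the lowest without normoxia 1. Camp stood to Ngp as 0.266 to 0.303 in the ECs and as 0.556 to 0.982 in the 9 lung libraries, ranges that do not overlap.

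S100a8 was at 1318, 1417 and 1464 in the ECs  and S100a9 was at 2672, 2868 and 3737. Both lay above all normoxia lungs. S100a9 was 4.35-fold higher (log2 fold change 2.12 ± 0.49, limma adjusted p = 0.00865), and S100a8 3.85-fold (1.95 ± 0.53, 0.0171). Without normoxia 1 these log2 fold changes were 1.49 and 1.24. The call of S100a8 was lost without EC 1 (adjusted p = 0.0501) and with no filter on low values (0.0736). Csf3r, the receptor of the granulocyte growth factor, was at 398 to 629 in the ECs and at 335 to 909 in normoxia lung. The sum of S100a8 and S100a9 stood to Csf3r as 8.27 to 10.01 in the ECs and as 1.28 to 3.94 in normoxia lung. In the SuHx lungs this ratio was 4.21 to 11.2, with WT SuHx 2 above every EC library. It holds for Csf3r only, which was not called in the ECs. Of the 8 neutrophil markers 6 were called higher and 0 lower there, beside 26.1% and 30.1% of all genes. The summed signal of the 8 was 3553 to 4658 in the ECs against 1076 to 2081 in normoxia lung.

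The azurophil genes were scarce in the ECs. Their summed signal was 5.69, 15.7 and 11.2, from 5, 13 and 9 reads. Prtn3 was at 0, 2.41 and 0, below all normoxia lungs (log2 fold change -1.74 ± 0.61, limma adjusted p = 0.0432), but this rests on 2 reads in the ECs and was lost in 9 of 13 alternatives. Mpo was at 3.42, 7.23 and 2.496, Ctsg at 2.28, 2.41 and 1.25 and Elane at 0, 3.62 and 7.49, all within the wide normoxia range that normoxia 0 sets. The mean signal of Mpo was lower in the ECs (4.38 ± 2.51 against 18.8 ± 31.9) while its log2 fold change was 0.11, and the same held for Ctsg (1.98 ± 0.636 against 5.83 ± 10.1, log2 fold change 0.15), since the log scale weighs the normoxia libraries at 0. With all libraries Mpo, Elane and Ctsg were not called, and the normoxia lungs, with 70, 0 and 1 reads of Mpo, spread widely. Without normoxia 0 Mpo was called higher in the ECs (log2 fold change 1.92, adjusted p = 0.0497) and Prtn3 lost its call, beside 22.6% of all genes called higher. Lcn2 was at 925, 1416 and 1367 in the ECs, near its level in normoxia lung (log2 fold change -0.45 ± 0.20, adjusted p = 0.0886).

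The azurophil genes thus stood to Camp and Ngp in different proportions in the libraries. Lcn2, also a specific granule gene, was left out of the sum. Lcn2 stood to the sum of Camp and Ngp as 0.848 to 2.00 in the ECs and as 7.74 to 39.9 in the lungs. The order of libraries given here therefore holds for Camp and Ngp only. The summed azurophil signal was 0.522% to 1.64% of the sum of Camp and Ngp in the ECs. It was 15.0% to 33.2% in the WT SuHx lungs and 16.9% to 21.4% in the lungs labelled Ahr-KO. In normoxia it was 36.5% in normoxia 0, 11.4% in normoxia 1 and 6.32% in normoxia 2, the latter from 5 and 6 azurophil reads. The ECs lay below all lung libraries, and normoxia 0 above them all. These shares compare signals that are not corrected for gene length and serve only to set libraries side by side.

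**Figure D4:**
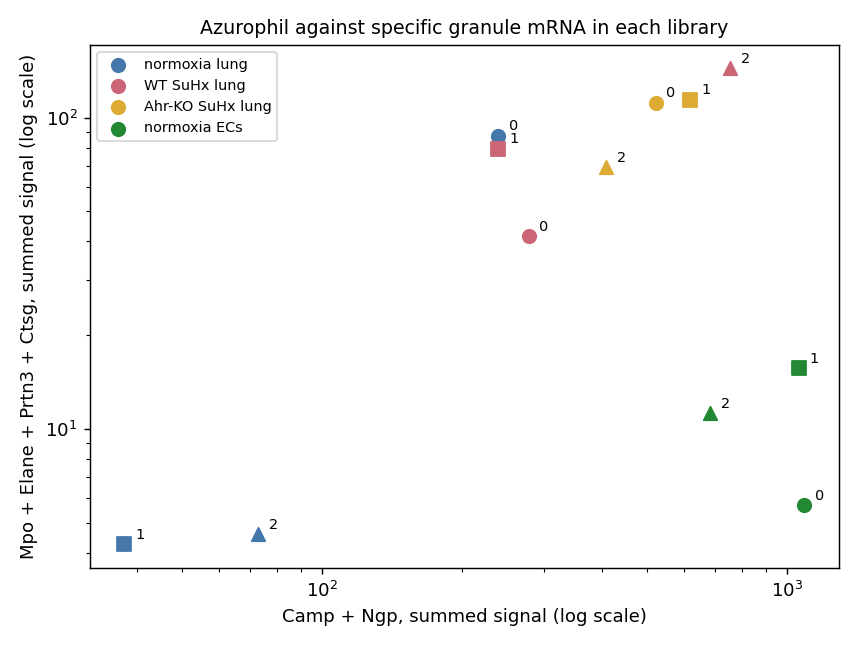
Summed signal of Mpo, Elane, Prtn3 and Ctsg (y axis, log scale) against that of Camp and Ngp (x axis, log scale), 1 point for each of the 12 libraries, numbered by suffix and coloured by group. The 3 EC libraries lie to the lower right, normoxia 1 and 2 to the lower left, and normoxia 0 next to WT SuHx 1.

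Genes whose pattern was most like that of each set were sought over the 9 lung libraries, among 13534 rows, by Pearson's correlation with the set's mean centred log2 level. The correlation is a description, since the libraries share their groups. For the azurophil set the closest rows were those of alpha-defensins, whose neutrophil members are packed in the same granule: the merged row of Defa5 and RatNP-3b (r = 0.996) and Np4 (r = 0.995). The Defa5 row was at 151, 0 and 0.767 in normoxia, at 74.7, 136 and 399.9 in WT SuHx, at 465, 400.3 and 188 in the lungs labelled Ahr-KO, and at 10.2, 24.1 and 13.7 in the ECs. Np4 was at 89.9, 1.70 and 0.767 in normoxia, at 43.5, 81.1 and 206 in WT SuHx, at 206, 218 and 97.3 in the lungs labelled Ahr-KO, and at 10.2, 3.62 and 8.74 in the ECs. Both rows were high in normoxia 0 and near 0 in normoxia 1 and 2, as Mpo, Ctsg and Elane were. They were picked for their likeness over these same libraries, so this shared pattern follows from the choice. The defensins are a family of near-identical copies, so reads may be split between them. Rhag, a membrane protein of red cell precursors (r = 0.956), the cyclin gene Ccnf (0.944) and the glycolytic gene Gapdh (0.939) came next.

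For the specific granule set, here Camp, Ngp and Lcn2, the closest rows were Wasf1 (r = 0.982), Ccnf (0.980), Atp23 (0.976), Rhag (0.968) and Dctd (0.963). For calprotectin they were Tead2 (0.964), Vps37d (0.964), Mmp8 (0.964), Rgs18 (0.963) and Blnk (0.959). Mmp8, the collagenase of neutrophil specific granules, was at 150.4, 51.1 and 222 in normoxia, at 161, 221 and 325 in WT SuHx, at 498, 464 and 319.9 in the lungs labelled Ahr-KO, and at 833, 912 and 808 in the ECs.

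Other neutrophil genes were counted from lists chosen together with the members, with earlier results of these data known. Their counts are to be read against the shares of all genes called higher and lower, which were 7.08% and 6.39% in WT SuHx, 0.197% and 0.302% between the SuHx groups, 5.95% and 3.8% in the lungs labelled Ahr-KO against normoxia, and 26.1% and 30.1% in the ECs. Of the 19 tested rows of other granule and effector genes, limma called 0 with SuHx in WT lung (4 at an unadjusted p under 0.05) and 0 between the SuHx groups (3 at an unadjusted p under 0.05). Lyz2, lysozyme, which macrophages also make, had the highest mean signal of the list and a log2 fold change of -0.80 ± 0.39 in WT SuHx (adjusted p = 0.189). Cybb, an oxidase subunit gene, had 0.03 ± 0.12 (adjusted p = 0.883). Mmp8 alone rose in the lungs labelled Ahr-KO against normoxia (3.48-fold, limma adjusted p = 0.0465). In the ECs, where 26.1% of all genes were called higher and 30.1% lower, 9 of the 19 were higher and 1 lower: Mmp9 (8.35-fold), Mmp8 (7.04-fold), the oxidase subunit gene Ncf1 (1.89-fold) and Mmp25 (2.69-fold) had the smallest adjusted p among them. The median log2 fold change of this list was 0.18, 0.03, 0.06 and 0.50 in the 4 comparisons in the order given above.

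Of the 18 tested rows of neutrophil surface receptors, Il1r2 alone was called with SuHx in WT lung and in the lungs labelled Ahr-KO (2.05-fold, limma adjusted p = 0.0202). The list's median log2 fold change was -0.00262 in WT SuHx and 0.38 in the lungs labelled Ahr-KO, and Csf3r did not pass in either (-0.16 ± 0.40 and 0.39 ± 0.40). In the ECs 12 of the 18 were higher and 0 lower (median 1.28), beside 26.1% and 30.1% of all genes. Il1r2 was 20.8-fold higher there, the merged row of the receptors Trem1 and Trem3 4.52-fold, and the lectins Clec4e and Clec4d 5.48-fold and 4.18-fold.

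Chemoattractants and cytokines that act on neutrophils gave 1 call of 11 tested with SuHx in WT lung, Cxcl3, at 14826, 13650 and 16021 in normoxia and 22448, 21008 and 26209 in WT SuHx (1.56-fold, limma adjusted p = 0.0124). With the Ahr-KO label it was at 14949, 16265 and 16292, below all WT SuHx libraries, without a call (log2 fold change -0.55 ± 0.13, adjusted p = 0.124). Tnf was not called either (0.51 ± 0.31, adjusted p = 0.479). In the ECs 9 of the 13 tested were higher and 1, Cxcl3, was lower, beside the same 26.1% and 30.1%. Cxcl2 was 323-fold higher, Ccl3 34.4-fold, Il1a 32.7-fold and Cxcl1 16.02-fold. Of the 9 transcription factors of granulocyte formation, limma called 0 in WT SuHx (2 at an unadjusted p under 0.05) and 0 between the SuHx groups (0 unadjusted), Cebpd (3.71-fold) and Cebpb (2.14-fold) rose in the lungs labelled Ahr-KO against normoxia, and 5 were higher in the ECs (26.1% of all genes), among them Cebpd (12.9-fold), Cebpb (4.19-fold), Runx1 (2.52-fold) and Irf8 (2.35-fold). In WT SuHx the log2 fold change was -0.23 ± 0.20 for Cebpa and -0.03 ± 0.25 for Irf8. Cebpe, the factor of the specific granule stage, was at 7.67 to 30.2 in all lungs and at 3.42 to 23.7 in the ECs.

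Among the 8 genes of calprotectin receptors and S100 relatives, Tlr4, a receptor for calprotectin (1.34-fold), and the merged row of Cd36 (1.40-fold) fell with SuHx in WT lung (limma adjusted p = 0.0255 and 0.0372), and S100a11 rose in the lungs labelled Ahr-KO against normoxia (1.64-fold, 0.00652). In the ECs 5 of the 8 were lower, where 30.1% of all genes were called lower, among them Tlr4 (2.76-fold), S100a6 (2.39-fold) and Ager, a receptor that marks alveolar type 1 cells (4.47-fold), and 1 was higher, S100a10 (1.82-fold). Of the 6 rows of protease inhibitors, limma called 0 in each lung comparison (1 at an unadjusted p under 0.05 in WT SuHx and 0 in the others). The serpin gene Serpina1 was 3.19-fold higher in the ECs and Timp2 2.28-fold lower. In WT SuHx the log2 fold change was -0.09 ± 0.11 for Timp2 and 0.42 ± 0.13 for the merged row of Araf and Timp1 (adjusted p = 0.0677).

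Markers of other cells were also counted in the ECs, where 26.1% of all genes were called higher and 30.1% lower. All 4 B cell markers with a row were called higher there, with sums of 4745 to 6192 against 678 to 2217 in normoxia lung, and of the 7 tested T and NK cell markers 3 were called higher (Cd3d, Cd3e and Cd3g) and 2 lower (Nkg7 and Gzmb). Of the 8 tested monocyte and macrophage markers 5 were called lower, among them C1qa, C1qb and C1qc, and 0 higher. The part of leukocytes in the EC values of Camp, Ngp, S100a8 and S100a9 was not tested.

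**Figure D5:**
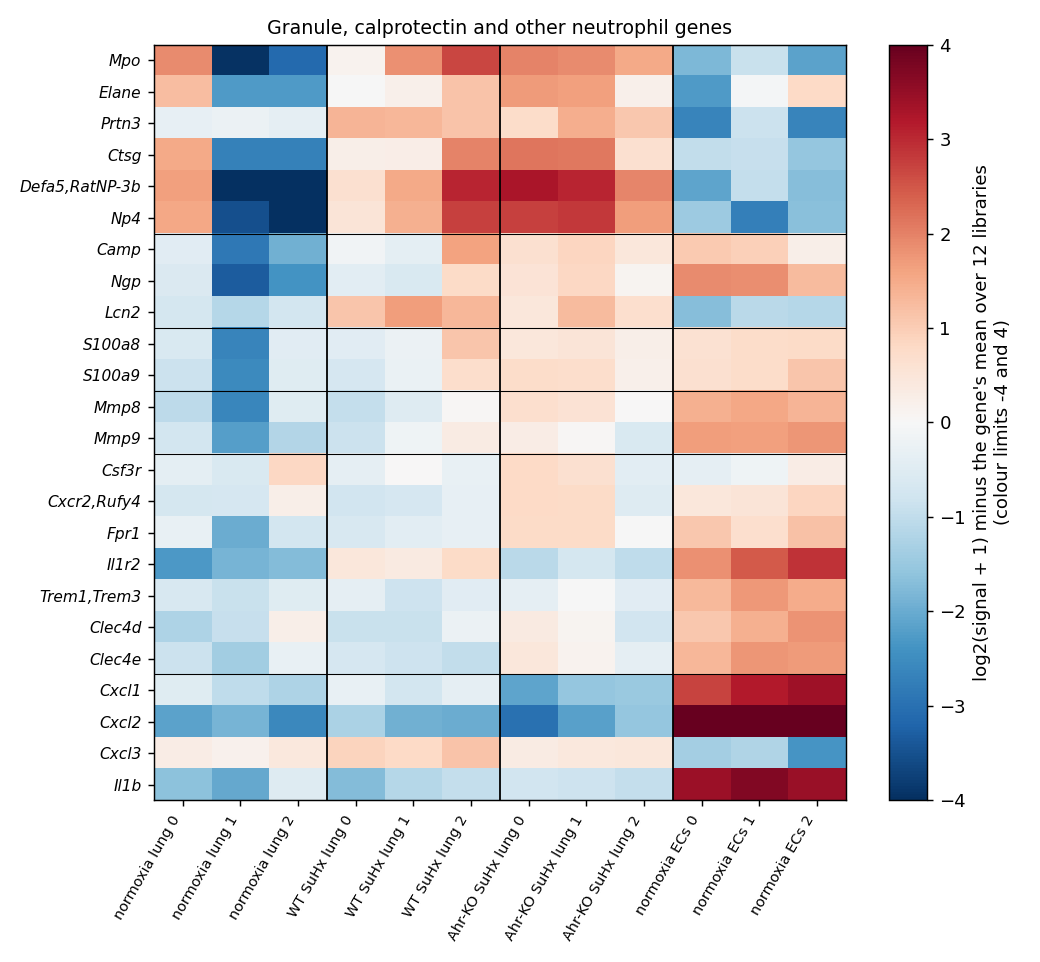
Log2(signal + 1) of 24 rows in the 12 libraries, each row minus its own mean (colour, limits -4 and 4), in blocks of azurophil genes with defensins, specific granule genes, calprotectin, collagenases, receptors and chemoattractants. Mpo, Ctsg and the defensin rows are low in normoxia 1 and 2 and in the ECs, while Camp, Ngp, Mmp8, Mmp9 and Il1r2 are high in the ECs.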

How the data were processed

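Gene expression was measured by RNA sequencing in 4 groups of 3 libraries. The authors deposited a signal, which the values show to be estimated read counts over 1 factor per library: low entries step by a constant, and 79.9% to 81.7% of entries, so converted, are whole reads to within 0.05. The build rn6 and FastQC are named in the submitters' processing notes. Aligner, counter, strandedness and kind of factor are not stated in the labels or the file header. Of the 19230 rows, 1046 name several genes. Columns were assigned to groups by their names.

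The test was that of limma 3.58.1, run in R 4.3.3 with an eBayes trend on log2(signal + 1), two-sided, after genes whose mean signal was under 1 had been dropped, and p-values were adjusted (Benjamini-Hochberg) over every gene left. The 9 lung libraries shared 1 fit, and ECs and normoxia lung had their own. A fold change is on the log2(signal + 1) scale, where the added 1 shrinks the change of low genes. Where a group has libraries at or near 0, it can still exceed the ratio of the mean signals. For Mpo in WT SuHx against normoxia lung it was 9.69-fold, against a ratio of means of 2.95. The fit was run on simulated data, in which only genes with higher means than the azurophil genes were changed. The simulated spread was also smaller than that of Camp or Mpo here. That run therefore does not show how well changes in such genes are called. All 10 genes are named. From each of 6 other lists the rule names up to 4 called genes with the smallest adjusted p, or, with none called, the 2 with the highest mean, of which not all are printed for every comparison; genes named beyond this rule (Csf3r, Cebpe, Rhag, Ms4a3, Pf4, Hbb, Bpifa1, Myh6 and the other cell markers) were chosen after their values were seen. Members and lists were chosen with earlier results of these data known. Of the 166 list entries, 5 names had no row. The alternatives were another normalization, filter, pseudocount, variance model, fold threshold, set of libraries, replicate block, and each library left out.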

Additional observations from a re-analysis of the deposited data

How the results depend on the processing

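Over all tested values of the 9 genes and alternatives, 488 of 555 kept their direction and side of the threshold, 38 lost a call, 20 gained one and 9 changed sign. The sign changes all came from leaving out 1 library and from values that were not called: between the SuHx groups the log2 fold changes ranged from -0.44 to 0.82 for Mpo, -0.080 to 0.91 for Camp and -0.039 to 0.73 for S100a8, and in the ECs from -0.99 to 1.92 for Mpo, -0.065 to 1.76 for Elane and -0.55 to 1.55 for Ctsg. The number of the 9 genes called in WT SuHx went from 2 to 4 with all 12 libraries in the fit and to between 1 and 7 with 1 library left out. In the lungs labelled Ahr-KO against normoxia it went from 4 to 2 with no filter, no trend, only the 2 groups in the fit, or both libraries rich in cardiac and airway RNA left out, and to between 1 and 6 with 1 library left out. In the ECs it went from 5 to 3 with no filter. Elane, Prtn3 and Ctsg gave no value in the ECs at a mean of at least 5. Ltf, below the filter of the main fit, was not followed in the alternatives.

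Over all genes, the calls for WT SuHx numbered 2052, and 748 where the fold change also had to reach 1 on the log2 scale in either direction, 3385 with the replicate block, and 862 to 2277 with 1 library left out. Between the SuHx groups they numbered 76, and 49 with no filter, 47 with no trend, 126 with all 12 libraries and 32 to 55 with 1 library left out. In the lungs labelled Ahr-KO against normoxia they numbered 1485, and 659 at the fold threshold and 721 to 1882 with 1 library left out; in the ECs 8539 and 4409 at the fold threshold. The column suffix was used as a replicate block, though libraries with the same suffix were not shown to be paired (correlations of their deviations from -0.04 to 0.22, and from -0.20 to 0.18 for unlike suffixes). With the replicate block Camp in WT SuHx (adjusted p = 0.0450) and S100a9 in the lungs labelled Ahr-KO (0.0420) were called and Prtn3 in the ECs was not (0.0593). Causes were not tested. Ltf, with at most 2 reads in a library, fell below the filter on mean signal of the main fit and was not tested there.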
